A study of Homo sapiens with 6 samples.

Results

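Messenger RNA of starved A431 cells with and without epidermal growth factor (EGF) was compared on 4 of the 6 arrays of the series, 2 arrays of control cells and 2 of EGF-treated cells. A431 is a human line from an epidermoid carcinoma of the skin, known for a very high level of the EGF receptor (EGFR). Both groups had grown in medium with 10% serum and were then starved for 24 h. The control cells were left untreated, the EGF cells received 100 ng/ml EGF, and the labels give 30 min as the time of harvest. The 2 remaining arrays, of cells given the same EGF and also gefitinib (10 µM), which blocks the EGFR kinase, entered the model only to estimate the spread. The genes described are all those with a named transcript probe set, 17687 genes from 17705 named probe sets, out of 21448 transcript probe sets tested. Whether the biological replicates named in the labels were separate cultures is not stated, and the p-values measure only how these arrays vary, which may be technical.

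EGF binds EGFR at the cell surface, and the activated receptor signals through the RAS and MAP kinase cascade, through PI3 kinase and AKT, and through STAT factors. MAP kinase signalling drives transcription factors of the ETS, SRF and AP-1 families, and AKT keeps FOXO factors out of the nucleus. In epithelial cells the pathway is known for promoting growth, migration and wound repair, and a starved culture is the usual starting point for seeing its targets.

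Values are on the log2 scale of the deposited data, where 1 unit is a 2-fold step in signal. The medians of the 4 arrays lay between 6.07 and 6.14, and 39.5% to 42.1% of the probe sets on an array were brighter than the 95th percentile of its negative-control probes, the limit used here for detection (7.14 to 7.46). Differences are EGF minus control ± the standard error of the limma fit, with 2 arrays a group, and calls were made where the adjusted p was under 0.05. Where the dimmer group lay at or below the limit on both arrays, a fold is a lower bound, written "at least". For IL1A, NRP2, PKP3 and SDF2L1 only 1 of the 2 control arrays was above the limit, and for EPHA4 and GABARAPL1 only 1 of the 2 EGF arrays, so the folds given for these 6 genes lean on a value near background. The identity of the cells was checked against 8 measured epidermal and A431 markers, among them EGFR, KRT5, KRT14 and CDH1, and all 8 were above the limit on the arrays of both groups. Of the markers of other cell types, 2 of 7 fibroblast genes (LUM and COL1A2), 1 of 7 leukocyte genes (CD68) and 0 of 6 endothelial genes were above the limit in the control cells. The summed linear signal of the fibroblast list was 1036 to 1106 units in control and 502 to 626 units with EGF, 2 of its genes (LUM and DCN) being called lower, and its part in the results below was not tested. The deposited hybridization spikes bioB, bioC, bioD and cre were each lower on both EGF arrays than on both control arrays, with differences of −0.37 to −0.30, and the part of that difference in the results was not tested. In RNA from whole cultures, a change in the number of cells that carry a transcript cannot be told apart from a change in the amount per cell.

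EGFR itself stood at 14.42 and 14.38 in the control cells and at 14.44 and 14.44 with EGF. The difference was 0.04 ± 0.17, which is within the spread between arrays (adjusted p = 0.916).

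The response to EGF was broad and went in both directions. Of all transcript probe sets, 11.9% were called, 2554 in number, with 1417 higher (6.61%) and 1137 lower (5.3%). Among the 17687 named genes, 1243 were higher (7.03%) and 1022 lower (5.78%), and these 2 percentages are the background for the counts of gene groups below. The median fitted fold was 2.12 among probe sets called higher and 2.14 among those called lower. By the fitted difference 865 of the called-higher and 699 of the called-lower probe sets changed 2-fold or more, 126 and 106 of them 4-fold or more, 34 and 24 8-fold or more, and 11 and 6 16-fold or more. One group was not above background for 7 of those 11 and 3 of those 6, for 20 of the 34 and 12 of the 24, and for 51 of the 126 and 45 of the 106, so that their fitted sizes are not measured folds. The count rests on all 4 arrays, since leaving out 1 of them leaves a group with a single array: 726 probe sets were then called without EGF array 1, 736 without EGF array 2, 828 without control array 1 and 839 without control array 2. Only the genes whose call held in each of those 4 fits are described as robust to leaving out an array.

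The share of probe sets called depended on how bright they were in the starved cells. Probe sets within the negative-control range on both control arrays made up 12366 of the total, and 2.69% of them were called higher and 1.67% lower, both well under the background of 6.61% and 5.3%. The remaining probe sets were split by control mean into a dim, a middle and a bright class of equal size, with borders at 8.92 and 10.95. In the dim class 12.6% were called higher and 8.46% lower, in the middle class 13.4% and 11%, and in the bright class 9.81% and 11.3%. The order of higher and lower calls turned around in 2 classes when the class was set by the mean of the 4 arrays, which uses both groups alike. In the bright class 13.0% were then called higher and 8.37% lower, and in the negative-control range 1.35% higher and 1.71% lower. The control arrays enter both the start level and the difference, and the 4-array mean does not favour either group. Precision rose with level, and the median standard error fell from 0.240 in the negative-control range to 0.181 in the bright class.

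**Figure D1:**
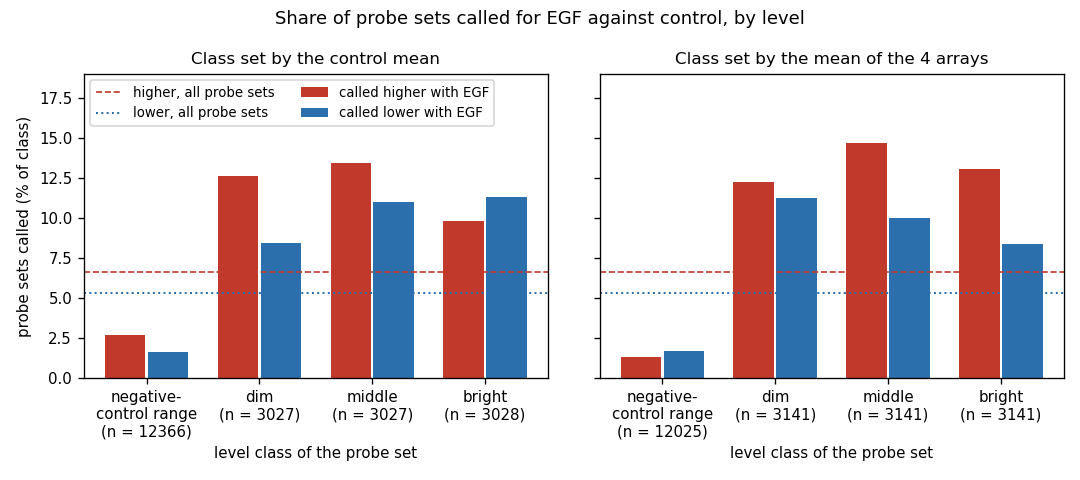
Percentage of transcript probe sets called higher (red) or lower (blue) with EGF in 4 level classes, with the class set by the control mean on the left and by the mean of the 4 arrays on the right; lines mark the shares over all probe sets, 6.61% and 5.3%. In the bright class lower calls lead on the left (11.3% against 9.81%) and higher calls on the right (13.0% against 8.37%).

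Some genes rose from the negative-control range into detection. SOCS2, a feedback inhibitor of cytokine receptors, stood at 4.08 and 3.82 in control and at 9.76 and 9.73 with EGF. HAS2, a synthase of the matrix sugar hyaluronan, went from 3.80 and 3.55 to 8.55 and 8.64. Both genes lay below the limit on both control arrays and above it on both EGF arrays, by at least 5.48-fold and at least 2.47-fold. In all, 138 called probe sets crossed the limit upward in this way and 157 crossed it downward, while 368 were called although both groups lay within the negative-control range.

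Downward crossings included genes that had been well measured in starved cells. TXNIP, which restrains glucose uptake and binds thioredoxin, stood at 10.39 and 10.11 in control and at 5.74 and 5.84 with EGF. FAXDC2 fell from 10.38 and 10.51 to 6.76 and 6.20, and CYP1A1, an enzyme of xenobiotic metabolism induced by the aryl hydrocarbon receptor, from 10.05 and 9.34 to 6.48 and 6.57. Their falls were at least 7.32-fold, at least 8.39-fold and at least 5.01-fold. In the dim class the falls of SCNN1G, a subunit of the epithelial sodium channel (7.57 and 7.59 to 3.97 and 3.38), and TP53INP1, a p53-induced gene (8.35 and 7.98 to 5.57 and 4.61), ended below the limit as well, so that their sizes are known only as at least 1.15-fold and at least 1.73-fold.

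Other genes were above the limit in both groups, and their fold can be given as measured. BCL6, a transcriptional repressor, fell 31.4-fold, from 12.60 and 12.71 to 7.83 and 7.53. Its EGF values are close above the limits of those arrays, 7.46 and 7.29, so this fold leans on values near background. MPPED2 fell 29.1-fold, from 12.81 and 12.98 to 8.10 and 7.96. On the rising side, FST, which encodes the activin antagonist follistatin, rose 9.71-fold, from 9.82 and 9.87 to 13.09 and 13.15. TNFAIP3, an inhibitor of NF-kB signalling, rose 8.83-fold, from 9.83 and 10.06 to 13.10 and 13.08. PAQR5, a membrane progestin receptor, rose 10.6-fold from the dim class, from 7.43 and 7.78 to 11.02 and 11. Its control values are likewise close above the limits of those arrays, 7.14 and 7.44. Among the genes already bright in starved cells, F3 (tissue factor, which starts blood clotting), SERPINB13, IER3, KLF6 and PLAU (urokinase) rose most, by 7-fold, 5.69-fold, 5.28-fold, 4.49-fold and 4.49-fold. All the genes of this paragraph kept their call in each fit with an array left out.

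On a linear scale a small number of probe sets held much of the change. Called-higher probe sets held 6.39% and 6.48% of the summed linear signal on the control arrays and 14% and 13.9% on the EGF arrays. Called-lower probe sets held 8.41% and 8.40% on the control arrays and 3.99% and 3.89% on the EGF arrays. Of the gain of the 1417 called-higher probe sets, 82 held 50% and the top 20 held 26.1%, and of the loss of the 1137 called-lower ones, 54 held 50% and the top 20 held 32.6%. Probe sets differ in how well they bind, so linear signal ranks changes in signal and not in number of transcripts.

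The genes with the largest linear gain were SFN, ASPH, TM4SF1, WARS1, F3 and CCT6A. SFN, the 14-3-3 protein of squamous epithelium, gained 95928 units with a rise of only 2.03-fold, from 16.50 and 16.51 to 17.48 and 17.57. WARS1, the cytoplasmic tryptophanyl-tRNA synthetase, gained 46454 units with a 3.31-fold rise, from 14.31 and 14.28 to 16.02 and 16.02. SFN, ASPH, TM4SF1 and CCT6A lost their call when any 1 of the 4 arrays was left out, whereas WARS1 and F3 kept it.

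Linear losses were led by TNFSF10, CLDN1, KRT4, GLUL, IGFBP3 and MT1E. TNFSF10, the death ligand TRAIL, lost 74218 units in a 4.09-fold fall, from 16.62 and 16.55 to 14.40 and 14.70. GLUL, glutamine synthetase, lost 39565 units in a 3.91-fold fall, from 15.70 and 15.69 to 13.72 and 13.74. CLDN1, a tight junction protein, fell by only 1.60-fold yet lost 66465 units. Of the top 20 losses 8 were under 2-fold, as were 5 of the top 20 gains. TNFSF10 and GLUL kept their call without any 1 array, IGFBP3 lost it without EGF array 2, KRT4 and MT1E lost it without either EGF array or control array 1, and CLDN1 lost it without any 1 of the 4.

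**Figure D2:**
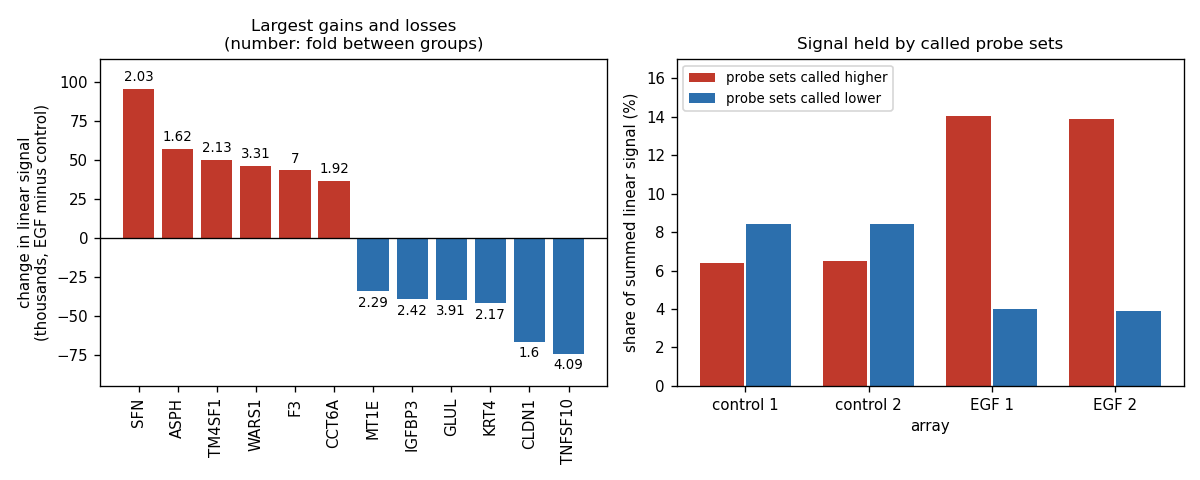
Left, change in linear signal (EGF minus control) of the 6 named genes with the largest gain and the 6 with the largest loss, each bar marked with its fold; right, share of summed linear signal held by called-higher and called-lower probe sets on each array. SFN gained most, 95928 units at 2.03-fold, and the share of called-higher probe sets was 6.39% to 6.48% on control and 13.9% to 14% on EGF arrays.

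Genes were then grouped by function into 55 lists with 3391 distinct measured genes, of which 271 were called higher and 203 lower. The median difference of a list ran from −0.44 to 0.61, with 28 lists above 0 and 27 below, beside −0.03 over all named genes and 0.03 over the 7827 genes above the limit in a group. Of the 7827 genes above the limit, 13.9% were called higher and 10.3% lower. Counts below are set against the shares over all named genes (7.03% higher, 5.78% lower) and, for lists that lie almost wholly above the limit, against those 2 values. With any 1 of the 4 arrays left out, 76 to 99 of the list members were called higher and 54 to 68 lower.

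**Figure D3:**
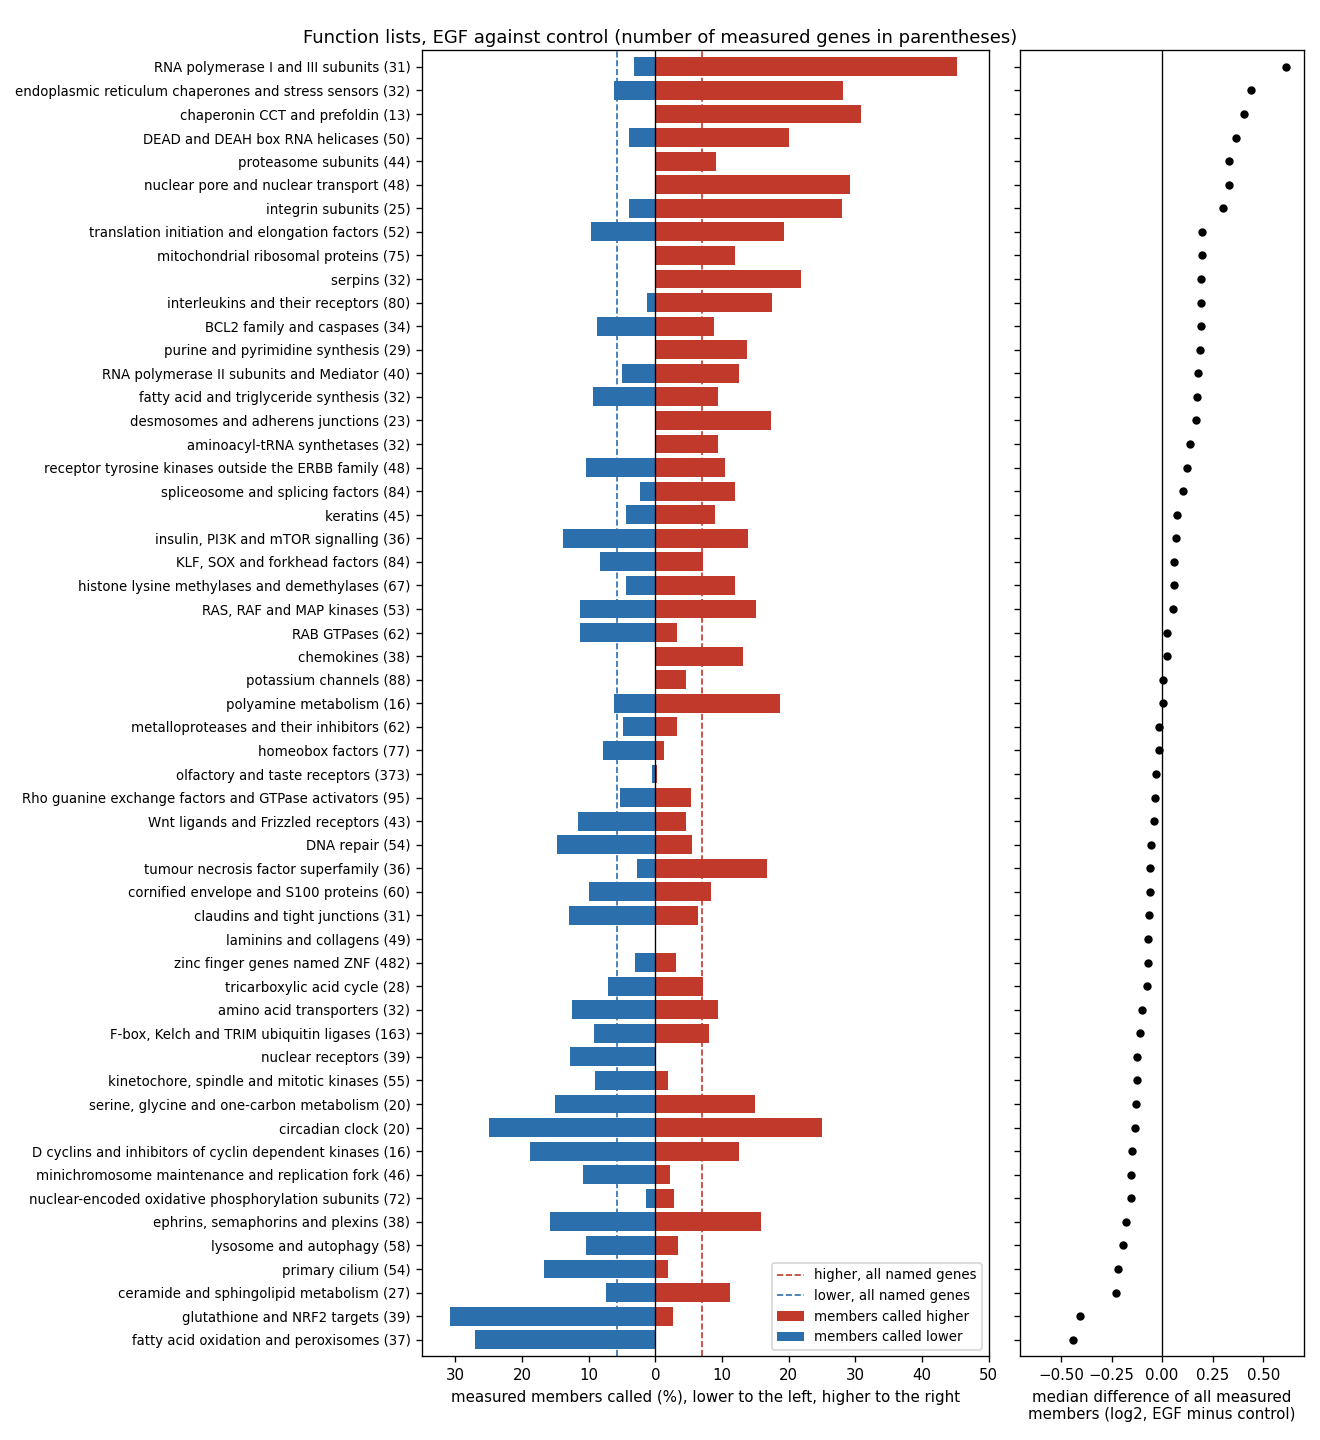
Percentage of the measured members of each of 55 function lists called lower (blue, to the left) or higher (red, to the right) with EGF, with dashed lines at 5.78% and 7.03% for all named genes, and at the right the median log2 difference of all measured members. RNA polymerase I and III subunits stand at the top with a median of 0.61, and fatty acid oxidation and peroxisomes at the bottom with −0.44.

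Among secreted signals, interleukins and their receptors moved mostly upward: 14 of 80 measured genes were called higher and 1 lower, 7 to 8 and 1 with an array left out, and the median difference was 0.19. Of the 80 genes, only 18 were above the limit in a group. Among those called higher, IL6, IL12B, IL23A, IL6R, IL18R1 and IL1RL2 did not exceed it on any of the 4 arrays. Their calls therefore give no measured fold. IL1A, an alarm cytokine of keratinocytes, rose 8.53-fold, from 7.37 and 7.28 to 10.52 and 10.32. IL1R2, the decoy receptor that traps interleukin 1, rose at least 2.37-fold, from 5.26 and 5.52 to 8.60 and 8.47. Both the ligand and its trap were therefore called higher with EGF. The 1 interleukin receptor that fell was IL20RB, a subunit of the receptors for interleukins 19, 20 and 24, from 12.77 and 13.02 to 9.98 and 10.23, a 6.93-fold change.

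Of 38 chemokines, limma called 5 higher and 0 lower, and 9 had an unadjusted p under 0.05. The CXCR3 ligands CXCL9, CXCL10 and CXCL11 led, and CXCL11 stood at 6.38 and 6.85 in control and at 9.72 and 10.33 with EGF, at least 6.65-fold higher. Only 6 of the 38 were above the limit in a group. The list's median was 0.02, with 19 differences above 0 and 19 below. CCL20 and CXCL17, named after their values were seen, were the other genes called. They lost their calls in 4 and 3 of the fits with an array left out. CCL20, at 3.01 and 3.06 in control and at 3.87 and 4.10 with EGF, lay within the negative-control range throughout.

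In the tumour necrosis factor superfamily 6 of 36 genes were higher and 1 lower (2 to 3 and 1 with an array left out). The death receptor TNFRSF10A, to which TRAIL binds, rose 8.15-fold, from 8 and 7.75 to 10.73 and 11.06, while the ligand gene TNFSF10 fell as given above. Ligand and receptor of this pair thus moved in opposite directions. TNFRSF12A, the receptor for the cytokine TWEAK, rose 4.32-fold, from 12.67 and 12.75 to 14.82 and 14.83.

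Guidance and contact receptors split evenly. Receptor tyrosine kinases outside the ERBB family had 5 of 48 genes higher and 5 lower, and ephrins, semaphorins and plexins had 6 of 38 in each direction. EPHA2, an ephrin receptor of epithelial cells, rose 3.61-fold, from 9.18 and 9.19 to 11.14 and 10.93, and EPHB6, a relative without kinase activity, rose 2.98-fold, from 8.73 and 8.62 to 10.34 and 10.17. EPHA4 fell 3.56-fold, from 8.96 and 9.09 to 7.50 and 6.89. Of the guidance genes, the receptor NRP2 rose 4.13-fold, from 7.08 and 7.56 to 9.36 and 9.38, SEMA5A fell 3.17-fold, from 10.31 and 10.22 to 8.47 and 8.73, and SEMA6D fell at least 1.34-fold, from 7.86 and 7.73 to 5.88 and 5.67. Members of both families were thus called in each direction.

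Wnt ligands and Frizzled receptors had 2 of 43 genes higher and 5 lower. WNT4 fell 4.69-fold, from 10.27 and 10.22 to 8.03 and 8, and WNT10A at least 4.35-fold, from 9.24 and 9.75 to 6.58 and 6.98. Both are ligands expressed in epidermis.

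Integrin subunits, the receptors for matrix, had 7 of 25 genes higher and 1 lower (3 to 4 and 0 with an array left out) and a median of 0.30. ITGA2, the collagen-binding subunit, rose 3.58-fold, from 10.55 and 10.32 to 12.24 and 12.31. ITGA3, which pairs with integrin beta 1 to bind laminin, rose 3.05-fold, from 11.74 and 11.77 to 13.38 and 13.35. ITGA5, part of the fibronectin receptor, rose 3.83-fold, from 10.15 and 9.90 to 11.93 and 11.99. The single lower subunit, named after its value was seen, was ITGB4, the hemidesmosome subunit, from 11.38 and 11.44 to 10.63 and 10.58, and its call was lost without any 1 array. Laminins and collagens, with 49 genes measured but 7 above the limit, had 0 called in limma's fit in either direction and 4 with an unadjusted p under 0.05.

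Serpins, a family of protease inhibitors, had 7 of 32 genes higher and 0 lower (5 to 6 higher with an array left out), and all 7 were SERPINB genes, which encode intracellular serpins. SERPINB13 stood at 11.40 and 11.31 in control and at 13.93 and 13.80 with EGF. SERPINB3 and SERPINB4 rose further, but they are near-identical copies and the split between them is uncertain. Metalloproteases had 2 of 62 genes higher and 3 lower, near or under the background, but only 11 of the 62 were above the limit in a group. MMP13, a collagenase, fell 3.61-fold, from 13.39 and 13.53 to 11.69 and 11.53.

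Keratins, the intermediate filaments of epithelium, had 4 of 45 genes higher and 2 lower (2 to 3 and 1 to 2 with an array left out). KRT6C, a keratin of activated epidermis, rose 3.02-fold, from 13.73 and 13.56 to 15.22 and 15.25, and shares sequence with KRT6A and KRT6B, so its signal may include theirs. KRT18, a simple-epithelium keratin, rose 2.50-fold, from 13.94 and 13.84 to 15.24 and 15.19. KRT10, the keratin of differentiating epidermis, fell 6.83-fold, from 11.87 and 11.81 to 9.15 and 9. Cornified envelope and S100 genes had 5 of 60 higher and 6 lower: small proline-rich SPRR2 genes were higher, whereas RPTN, the epidermal matrix protein repetin, fell at least 1.5-fold, from 8.10 and 7.81 to 5.01 and 5.01. Desmosome and adherens junction genes had 4 of 23 higher and 0 lower, of which PKP3, a desmosome plaque protein, rose 2.73-fold, from 7.46 and 7.06 to 8.80 and 8.61, and lost its call without EGF array 1.

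Inside the cell, the RAS, RAF and MAP kinase list had 8 of 53 genes higher and 6 lower. All 8 of the higher genes lost their call without any 1 array. MAP2K5, the kinase that activates ERK5, was the 1 lower member that kept its call in all 4 fits, from 7.22 and 6.70 in control to 4.96 and 5.26 with EGF. Its control arrays lie close to the limit, so the fit's −1.85 ± 0.23 gives no measured fold.

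Genes of insulin, PI3 kinase and mTOR signalling split into 5 higher and 5 lower of 36 (2 to 3 and 1 to 3 with an array left out). PIK3R1, the regulatory subunit of PI3 kinase, fell 3.92-fold, from 10.17 and 10.32 to 8.16 and 8.38. TRIB1 and TRIB3, pseudokinases that bind AKT or the ubiquitin ligase COP1, rose 6.04-fold and 2.93-fold. TRIB1 went from 10.66 and 10.25 to 13.09 and 13.01, and TRIB3 from 8.84 and 8.69 to 10.32 and 10.32. IRS2, an adaptor of the insulin receptor named after its value was seen, went from 7.58 and 7.18 to 5.59 and 5.76, and lost its call in 1 of the 4 fits with an array left out.

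The circadian clock had 5 of 20 genes higher and 5 lower, 25% in each direction, and 2 to 4 and 4 with an array left out. Members on the lower side were mostly output factors and repressors. DBP, a PAR bZIP factor that carries clock output, fell at least 4.39-fold, from 9.59 and 9.43 to 6.69 and 6.79. Its relative TEF, named after its value was seen, went from 8.65 and 8.75 to 7.23 and 6.45. NR1D2, the repressor REV-ERB beta, fell 3.51-fold, from 9.86 and 10.06 to 7.86 and 8.44. The BHLHE pair moved apart: BHLHE41 fell 4.95-fold, from 13.52 and 13.59 to 11.28 and 11.22, while BHLHE40, named after its value was seen, stood at 11.76 and 11.72 in control and at 13.32 and 13.43 with EGF. BMAL2, a partner of CLOCK, rose 4.81-fold, from 10.94 and 10.76 to 13.13 and 13.10. These 6 genes kept their calls with any 1 array left out.

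Nuclear receptors had 0 of 39 genes higher and 5 lower (2 with an array left out), and 11 with an unadjusted p under 0.05. RARB, a retinoic acid receptor, fell from 6.11 and 6.88 to 3.33 and 4.27, wholly within the negative-control range, so that no fold is given. RARG, the epidermal retinoic acid receptor, fell 2.06-fold, from 11.21 and 11.42 to 10.33 and 10.22, and its call was lost without any 1 array. NR1D2 is given with the clock above, and RXRB and PPARG, named after their values were seen, also lost their calls without any 1 array.

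Zinc finger genes with a ZNF symbol had 15 of 482 higher and 15 lower, 3.11% each, under the background in both directions. Only 130 of the 482 were above the limit in a group, beside 44.3% of all named genes, and the part of this in the low shares was not tested. Homeobox factors had 1 of 77 higher and 6 lower, and KLF, SOX and forkhead factors had 6 of 84 higher and 7 lower, near the background of 7.03% and 5.78%. SOX9, a regulator of epithelial progenitors, rose 5.15-fold, from 9.81 and 9.60 to 12.07 and 12.06. KLF6 rose from 11.36 and 11.38 to 13.39 and 13.68. FOXA1, a pioneer factor, fell 4.88-fold, from 9.95 and 10.38 to 7.69 and 8.07. HOXC13, a homeobox factor of hair and nail, fell at least 3.33-fold, from 9.02 and 9.20 to 7.43 and 7.20.

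Cell cycle control genes of the D cyclin and CDK inhibitor list had 2 of 16 higher and 3 lower (1 and 2 with an array left out). CDKN1A, the inhibitor p21, rose 4.58-fold, from 10.00 and 9.24 to 11.82 and 11.81. RBL2, the pocket protein p130 of resting cells, fell 3.02-fold, from 11.65 and 11.67 to 10.08 and 10.05. CCNG2, a cyclin of resting cells, fell 2.75-fold, from 11.25 and 11.38 to 10.08 and 9.63. In the replication fork list 1 of 46 genes was higher and 5 lower, and in the kinetochore, spindle and mitotic kinase list 1 of 55 was higher and 5 lower, the latter below or near the 10.3% seen over genes above the limit. KIF20A, a kinesin of cell division, fell 3.08-fold, from 11.80 and 11.59 to 10.04 and 10.11, and was the member of these lists whose call was robust.

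RNA polymerase I and III subunits and their factors, which transcribe ribosomal and transfer RNA, had 14 of 31 genes higher (45.2%) and 1 lower. The share over genes above the limit was 13.9% higher. The median of 0.61 was the highest of the 55 lists. With an array left out 3 to 6 genes were called higher and 0 to 1 lower, and 24 of the 31 differences were above 0. POLR1A, the largest subunit of polymerase I, rose 2.81-fold, from 9.73 and 9.75 to 11.22 and 11.24. POLR1B, its second-largest subunit, went from 4.74 and 4.51 to 7 and 6.95, still within the negative-control range. POLR3G, a polymerase III subunit known from stem and tumour cells, rose at least 2.29-fold, from 6.52 and 6.36 to 8.49 and 8.48. Its paralog POLR3GL, named after its value was seen, was the 1 lower gene, from 8.22 and 7.63 to 6.89 and 6.44, a call lost in 3 of the 4 fits with an array left out.

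RNA helicases of the DEAD and DEAH families had 10 of 50 genes higher and 2 lower (3 to 4 and 0 with an array left out), with a median of 0.37 and 39 differences above 0. DDX21, a nucleolar helicase of ribosome production, rose 3.68-fold, from 13.06 and 12.82 to 14.91 and 14.75. DDX10, another nucleolar helicase, rose 2.57-fold, from 8.71 and 8.56 to 10.09 and 9.91. DHX34, which acts in nonsense-mediated decay, went from 5.04 and 5.23 to 7 and 6.96 within the negative-control range. Spliceosome genes had 10 of 84 higher and 2 lower, below the 13.9% seen over genes above the limit.

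Of 48 nuclear pore and transport genes, limma called 14 higher (29.2%, beside 13.9% over genes above the limit) and 0 lower. The unadjusted p was under 0.05 for 22. Their changes were small, from 0.71 to 1.35 on the log2 scale, and 0 to 2 genes were called higher with an array left out, so this count rests on all 4 arrays. RANGAP1, the GTPase activator of RAN, rose 2.54-fold, from 10.34 and 10.70 to 11.92 and 11.81, and lost its call without EGF array 1. Of the 48 differences 40 were above 0 and the median was 0.33.

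Translation initiation and elongation factors had 10 of 52 higher (19.2%) and 5 lower (9.62%), beside 13.9% and 10.3% over genes above the limit. EIF5A2, a second form of the elongation factor eIF5A, stood at 9.64 and 9.33 in control and at 11.34 and 11.79 with EGF. Aminoacyl-tRNA synthetases had 3 of 32 higher (9.38%) and 0 lower, and WARS1 was the robust one. Mitochondrial ribosomal proteins had 9 of 75 higher and 0 lower (1 to 3 higher with an array left out), and MRPL36, of the large subunit, rose 2.60-fold, from 9.59 and 9.73 to 11.13 and 10.96. The shares of the synthetases and of these proteins (12%) are below the 13.9% over genes above the limit.

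Endoplasmic reticulum chaperones and stress sensors had 9 of 32 higher and 2 lower (3 to 5 and 0 with an array left out), with a median of 0.44. The 9 higher genes are 28.1% of the list, beside 13.9% over genes above the limit. SDF2L1 rose 3.41-fold, from 7.19 and 7.20 to 8.88 and 9.04. DNAJB11, a co-chaperone of BiP, rose 2.39-fold, from 11.42 and 11.36 to 12.68 and 12.60. HYOU1, a large HSP70-like chaperone, rose 2.42-fold, from 12.17 and 12.27 to 13.56 and 13.44. HERPUD1 and ATF6B, named after their values were seen, were the lower genes, and both lost the call without any 1 array. The cytosolic chaperonin CCT and prefoldin had 4 of 13 higher and 0 lower, and the proteasome 4 of 44 higher (9.09%, under the 13.9% over genes above the limit) and 0 lower; with an array left out 0 and 0 to 1 genes were called higher. For the chaperonin and prefoldin list the share called higher was 30.8%, beside the same 13.9%. PSMD12, a subunit of the proteasome lid, rose 2.40-fold, from 11.70 and 11.66 to 13.01 and 12.87, and lost its call without EGF array 1.

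**Figure D4:**
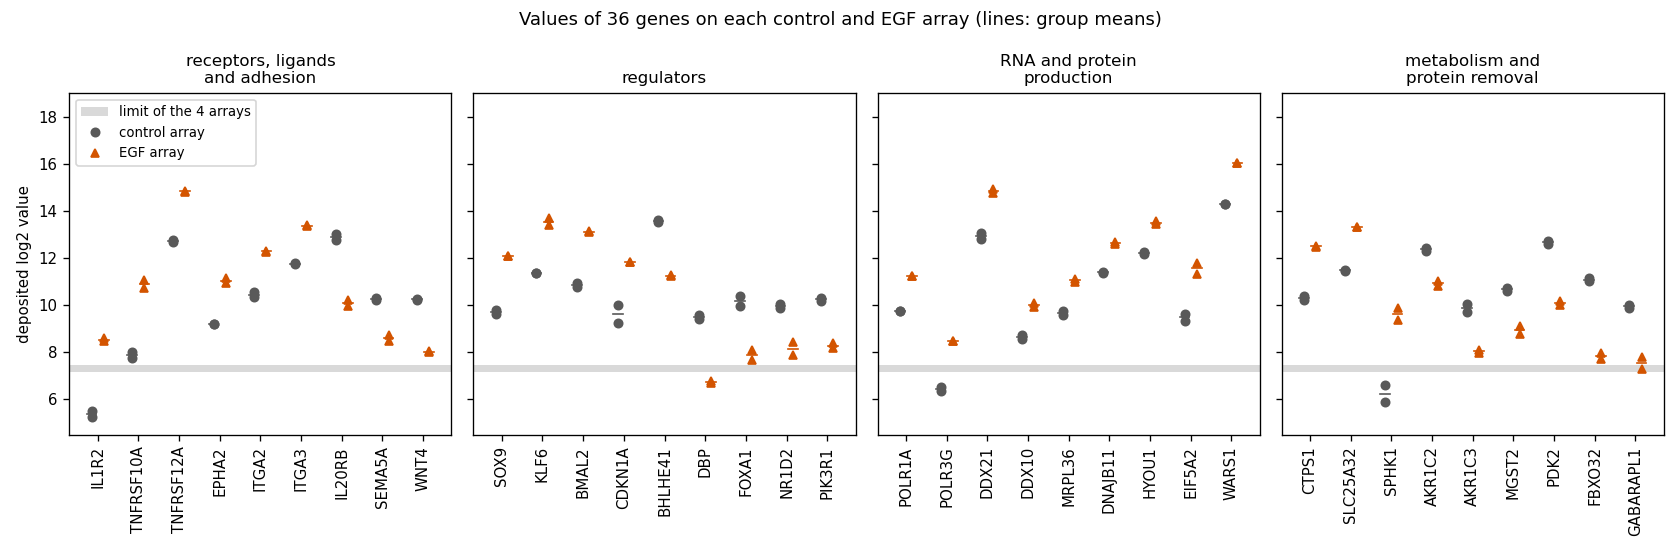
Deposited log2 values of selected named genes on each control array (grey circles) and EGF array (orange triangles) in 4 groups by function, with short lines at the group means and a grey band from 7.14 to 7.46 at the negative-control limits of the 4 arrays. The genes were picked among those whose control and EGF arrays do not overlap. IL1R2, SPHK1, POLR3G and DBP sit below the band in 1 group and above it in the other.

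F-box, Kelch and TRIM ligases had 13 of 163 genes higher and 15 lower (4 to 6 and 5 to 7 with an array left out), near the background for higher genes. FBXO32, the ligase atrogin-1 known from muscle wasting, fell 9.53-fold, from 11.17 and 11 to 7.94 and 7.72. TRIM47 rose at least 1.87-fold, from 6.55 and 6.52 to 8.21 and 8.17. Lysosome and autophagy genes had 2 of 58 higher (3.45%) and 6 lower (10.3%), under the 13.9% and equal to the 10.3% over genes above the limit. GABARAPL1, which decorates the autophagosome membrane, fell 5.29-fold, from 9.89 and 9.99 to 7.29 and 7.79. ATG16L1, of the conjugation machinery, went up from 5.78 and 5.96 to 7.47 and 7.27. Its value on EGF array 2 lay below that array's limit of 7.29, so no fold is given.

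Purine and pyrimidine synthesis had 4 of 29 genes higher (13.8%, beside 13.9% over genes above the limit) and 0 lower. CTPS1, which makes CTP, rose 4.59-fold, from 10.21 and 10.36 to 12.51 and 12.47. The other three lost their calls without any 1 array. Serine, glycine and one-carbon metabolism had 3 of 20 genes higher and 3 lower, with a median of −0.13. SLC25A32, the carrier of folate into mitochondria, rose 3.54-fold, from 11.51 and 11.44 to 13.30 and 13.30. The lower genes CTH, PSAT1 and ALDH1L2, named after their values were seen, differed by −1.44, −1.06 and −0.98 and lost their calls in 1, 3 and 4 of the 4 fits.

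Fatty acid oxidation and peroxisome genes had 0 of 37 higher and 10 lower (27%), with 15 at an unadjusted p under 0.05, and their median of −0.44 was the lowest of the 55 lists. With an array left out 0 to 2 genes were called lower, and 30 of the 37 differences were below 0. CAT, catalase, fell 2.82-fold, from 12.09 and 12.03 to 10.45 and 10.68, and lost its call without EGF array 1. HADHB, a subunit of the mitochondrial trifunctional enzyme, fell 1.93-fold, from 12.41 and 12.43 to 11.49 and 11.46, a call lost without any 1 array. Subunits of oxidative phosphorylation had 2 of 72 higher and 1 lower, under the background in both directions, with 52 of 72 differences below 0 and a median of −0.16. PDK2, the kinase that switches off pyruvate dehydrogenase, fell 5.90-fold, from 12.61 and 12.71 to 10.01 and 10.19.

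Glutathione and NRF2 target genes, which defend against oxidants, had 12 of 39 genes lower (30.8%) and 1 higher, with a median of −0.40. With an array left out 4 to 7 genes were called lower and 0 to 1 higher. AKR1C2, an aldo-keto reductase, fell 2.72-fold, from 12.42 and 12.31 to 11.02 and 10.82, and AKR1C3 fell 3.58-fold, from 10.04 and 9.70 to 8.11 and 7.96. Both belong to a family of close copies whose signals may be shared. Their copy AKR1C1, and GSTM1, GSTM2 and GSTM4 of another such family, are also among the 12 lower genes, so the 12 are not separate observations. MGST2, a microsomal glutathione transferase outside these families, fell 3.29-fold, from 10.61 and 10.72 to 9.10 and 8.79. NFE2L2, the gene of the factor NRF2 itself, named after its value was seen, stood at 13.53 and 13.47 in control and at 11.95 and 12.29 with EGF. SRXN1, sulfiredoxin, was the 1 higher gene and was likewise named after its value was seen.

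Ceramide and sphingolipid genes had 3 of 27 higher and 2 lower (2 to 3 and 1 to 2 with an array left out). SPHK1, the kinase that makes sphingosine 1-phosphate, rose at least 5.02-fold, from 5.87 and 6.61 to 9.36 and 9.88. SGMS2, a sphingomyelin synthase, rose 2.76-fold, from 8.69 and 8.64 to 9.96 and 10.30. ACER2, a ceramidase, fell at least 2.69-fold, from 8.69 and 8.91 to 6.92 and 7.08. Kinase and ceramidase of the same route therefore moved apart.

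DNA repair had 3 of 54 genes higher and 8 lower (14.8%), and primary cilium 1 of 54 higher and 9 lower (16.7%), but with an array left out 0 to 2 and 0 to 1 genes were called lower. DDB2, which recognises ultraviolet damage, fell 2.15-fold, from 8.98 and 8.78 to 7.71 and 7.84, and kept its call only without control array 2. BBS9, of the BBSome that carries cargo into cilia, fell at least 1.40-fold, from 7.89 and 7.84 to 6.53 and 6.67, a call lost without any 1 array. ARL6, which recruits the BBSome to membranes, was the 1 higher cilium gene, at 7.11 and 5.94 in control and at 9.01 and 8.83 with EGF, and lost its call without EGF array 1.

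Olfactory and taste receptors are known from sensory tissue. Of 373 measured genes 0 were above the limit, 1 was called higher and 2 lower, and the median was −0.03. The 3 called receptors (OR11H6, OR2A4 and OR52A1) changed by 0.97, −0.95 and −1.14 on the log2 scale within the negative-control range.

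Neighbours along the chromosomes were then compared, using the order of the 17684 genes that could be placed. Of 17660 pairs of adjacent measured genes, 131 (0.742%) were both called higher, 95 (0.538%) both lower, and 146 (0.827%) in opposite directions. Over all named genes 7.03% were called higher and 5.78% lower, and whether the pair counts exceed what those shares give was not tested. Leaving out pairs that share a name stem, which removes most tandem copies, left 111, 79 and 142 of 15689 pairs. Runs of at least 3 neighbours called the same way numbered 25, 15 higher and 10 lower, with 80 genes.

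Several runs held members of the same family. The longest held 5 genes of the epidermal differentiation region on chromosome 1, all lower: the bacterial-wall binding proteins PGLYRP3 and PGLYRP4 and the calcium-binding proteins S100A9, S100A12 and S100A8. In it S100A9 stood at 10.75 and 10.19 in control and at 9.59 and 9.51 with EGF, PGLYRP3, PGLYRP4 and S100A12 lay within the negative-control range throughout, and none of the 5 calls held in every fit with an array left out. On the same chromosome GSTM4, GSTM2, GSTM1 and GSTM5 were lower together, and LRRC8B, LRRC8C and LRRC8D, subunits of volume-regulated anion channels, were higher together. LRRC8C rose 6.57-fold, from 8.84 and 9.34 to 11.65 and 11.97, while LRRC8B and LRRC8D lost their calls without any 1 array and the GSTM genes in 3 or 4 of the 4 fits. OAS1, OAS3 and OAS2, interferon-induced sensors of double-stranded RNA on chromosome 12, rose 2.62-fold, 3.72-fold and 3.90-fold and kept their calls with any 1 array left out. Copies within the GSTM, AKR1C, SPRR2 and SERPINB runs share sequence, and the readthrough gene MSANTD3-TMEFF1 overlaps both genes it is named for, so these members are not separate observations.

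Other runs joined genes with no common name. GLIPR1, KRR1 and PHLDA1 on chromosome 12 rose 8.82-fold, 2.44-fold and 6.58-fold. GLIPR1, a secreted protein of the CAP family, stood at 8.60 and 8.72 in control and at 11.77 and 11.83 with EGF, and PHLDA1 at 10.86 and 10.61 and at 13.50 and 13.40. KRR1, a ribosome assembly factor between them, lost its call without any 1 array. ATP5MC2, CALCOCO1 and HOXC13, also on chromosome 12, were lower, ATP5MC2 only with all 4 arrays in the fit, and CALCOCO1, an autophagy receptor, fell 7.65-fold, from 11.06 and 10.87 to 8.20 and 7.86. The mitochondrial chaperones HSPD1 and HSPE1, which share a promoter region, were higher with their neighbour COQ10B, by 0.69, 0.74 and 1.93 on the log2 scale, and these calls were lost in 4, 4 and 3 of the 4 fits.

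Promoters were available for 14250 of the 17687 genes (80.6%), from RefSeq on GRCh38.p14, as 300 bases from 250 before to 50 after the start. For the 3736 genes with several starts the first listed was used. The motifs were searched on both strands. Factors downstream of MAP kinases were represented by AP-1 (TGANTCA), CRE (TGACGTCA) and ETS (CCGGAAGT), and AKT signalling by the FOXO letters GTAAACA. The E-box was searched as CACGTG. For the aryl hydrocarbon receptor the core GCGTG was used. STAT sites were searched as TTCNNNGAA. The promoter element known as the TATA box was searched as its usual letters, TATAAA. ISRE, the element of interferon-induced genes, was taken as GAAA repeated after a gap of 2 bases, and the SRF CArG box and NF-kB are given by name. A CArG box can hold the TATA letters, and STAT and ISRE matches can share theirs. A match is a description of letters, and a promoter without one may still be bound.

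The FOXO letters were in 4.29% of promoters of genes called lower, 36 of 839, and in 1.57% of genes called higher, 16 of 1022. They were in 2.34% of genes above the limit and 2.58% of all promoters. In the 100 bases before the start the shares were 1.19% (10 genes), 0.391%, 0.608% and 0.737% in the same order. The 95% interval of that 1.19%, from 0.573% to 2.18%, covers the shares of genes above the limit and of all promoters. Genes called lower with these letters in the 100 bases before the start, with the largest test statistics, are shown because FOXO factors are under direct control of AKT; this rule was chosen after the values were seen, and capitals mark the match on either strand. GRAMD1C, a sterol transporter gene, fell at least 5.26-fold, from 9.80 and 9.74 to 6.26 and 6.98. KLHDC2, a substrate receptor of a ubiquitin ligase, fell 4.23-fold, from 10.91 and 11.11 to 9.08 and 8.77, OTUD1, a deubiquitinase, 3.36-fold, and PSIP1, a chromatin tether, 2.50-fold. All 4 calls held with any 1 array left out.
GRAMD1C, chr3:113897400-113897499, plus strand: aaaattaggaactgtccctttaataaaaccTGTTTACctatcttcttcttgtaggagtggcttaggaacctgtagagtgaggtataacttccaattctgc
KLHDC2, chr14:49768053-49768152, plus strand: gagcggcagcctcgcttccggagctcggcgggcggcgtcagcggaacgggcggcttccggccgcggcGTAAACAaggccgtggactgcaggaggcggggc
PSIP1, chr9:15510971-15511070, minus strand: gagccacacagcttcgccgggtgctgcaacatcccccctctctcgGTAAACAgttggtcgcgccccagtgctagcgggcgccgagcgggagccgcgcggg
OTUD1, chr10:23438975-23439074, plus strand: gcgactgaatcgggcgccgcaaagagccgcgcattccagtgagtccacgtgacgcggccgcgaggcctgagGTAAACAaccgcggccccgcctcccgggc

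The ETS letters showed the reverse order. They were in 10.7% of promoters of genes called higher and 4.65% of those called lower, against 10.3% over genes above the limit and 6.24% of all promoters. The share among genes called higher is thus near that of expressed genes in general, and the low value lies with the genes called lower. Base composition moved alongside, with a median GC content of 66.0% in promoters of genes called higher, 63.3% of genes called lower, 65.2% over genes above the limit and 63.0% over all, and its part in the shares was not tested. The strongest genes called higher with the ETS letters, chosen by the same rule, were CHUK (IKK alpha, a kinase of NF-kB signalling), LRRC8A (the obligate subunit of volume-regulated anion channels), the helicase DDX21 and PWP2 (a ribosome assembly factor). LRRC8A rose 4.15-fold, from 9.35 and 9.10 to 11.13 and 11.44, PWP2 3.25-fold, from 8.42 and 8.45 to 10.25 and 10.02, and CHUK at least 2.31-fold, from 6.18 and 6.44 to 8.49 and 8.51.
CHUK, chr10:100229597-100229696, minus strand: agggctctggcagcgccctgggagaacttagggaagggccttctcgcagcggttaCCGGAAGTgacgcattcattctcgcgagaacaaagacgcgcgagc
LRRC8A, chr9:128882033-128882132, plus strand: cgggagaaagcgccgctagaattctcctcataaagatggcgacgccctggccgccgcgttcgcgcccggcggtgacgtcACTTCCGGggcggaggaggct
DDX21, chr10:68956070-68956169, plus strand: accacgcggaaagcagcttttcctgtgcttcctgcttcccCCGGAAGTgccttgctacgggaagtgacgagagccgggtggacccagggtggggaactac
PWP2, chr21:44107299-44107398, plus strand: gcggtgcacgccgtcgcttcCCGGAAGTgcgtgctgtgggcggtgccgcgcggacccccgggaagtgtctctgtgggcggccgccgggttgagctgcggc

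AP-1 letters were in 6.46% of promoters of genes called higher and 5.60% of those called lower, against 4.30% over genes above the limit and 5.75% of all promoters. In the 100 bases before the start the shares were 2.94%, 1.55%, 1.49% and 1.97%. SERPINB13, IL1A and CXCL11, described above, are the 3 strongest genes called higher with these letters in that window, and each carries the same core 87, 12 and 87 bases before its start.
SERPINB13, chr18:63587243-63587342, plus strand: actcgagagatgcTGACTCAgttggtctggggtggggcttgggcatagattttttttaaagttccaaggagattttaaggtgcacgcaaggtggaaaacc
IL1A, chr2:112784494-112784593, minus strand: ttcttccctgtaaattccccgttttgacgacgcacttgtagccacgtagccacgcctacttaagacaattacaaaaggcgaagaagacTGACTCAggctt
CXCL11, chr4:76036071-76036170, minus strand: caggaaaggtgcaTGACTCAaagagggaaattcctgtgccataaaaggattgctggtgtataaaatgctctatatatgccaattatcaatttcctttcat

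CArG boxes were in 1.66% of promoters of genes called higher, 1.31% of genes called lower and 1.19% over genes above the limit, and NF-kB motifs in 6.36%, 6.67% and 6.34%. STAT letters were in 7.44%, 5.84% and 6.02%, and ISRE letters in 4.01%, 3.46% and 3.07%. E-box letters were in 12.1%, 8.82% and 11%, TATA letters in 6.07%, 7.63% and 5.77%, CRE letters in 3.52%, 2.38% and 3.47%, and the receptor core in 56.3%, 42.6% and 52.0%.

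**Figure D5:**
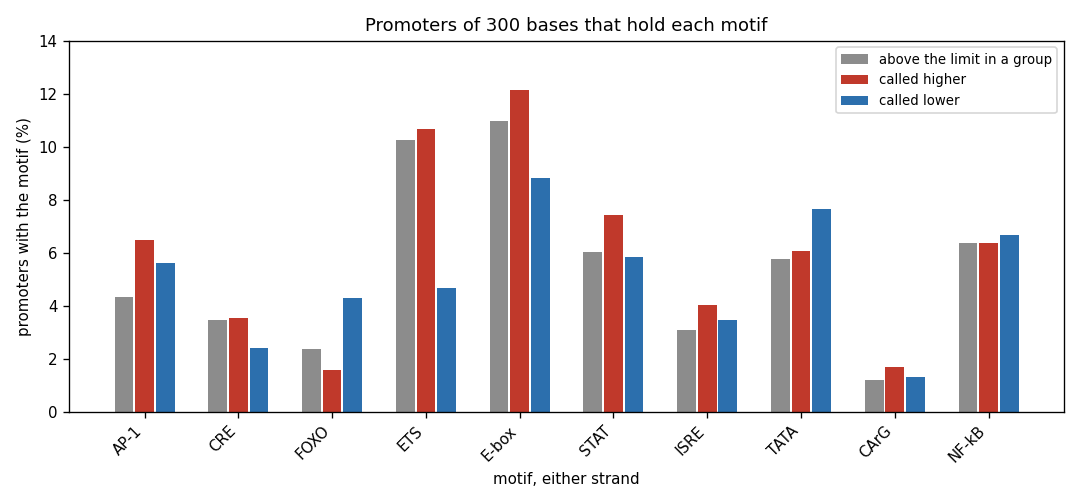
Percentage of 300-base promoters that hold each of 10 motifs on either strand, for genes above the limit in a group (grey), called higher (red) and called lower (blue); the aryl hydrocarbon receptor core, at 42.6% to 56.3%, is left out. FOXO letters are most frequent among genes called lower (4.29%), and ETS letters least frequent there (4.65%).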

How the data were processed

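The deposited log2 values of 6 arrays were made by the authors from RNA labelled with the WT PLUS kit, per the labels' protocols, and the submitters' processing notes name Transcriptome Analysis Console as the software. How background was corrected and arrays were normalized is not given in those sources. The values were used unchanged in limma 3.58.1 (R 4.3.3), with 3 group means over the 6 arrays, 3 residual and 4.22 prior degrees of freedom, and Benjamini-Hochberg adjustment over 21448 transcript probe sets. Probe sets without a gene symbol (3739) were tested but not named. For a gene with several probe sets the one with the highest mean was used. The members and lists were chosen with earlier results of these data known. Named genes were drawn from called probe sets whose control and EGF arrays do not overlap, so that lack of overlap is not a separate result. They were the 5 largest rises and falls per level class and the 6 largest linear gains and losses. Up to 3 called members per list by moderated statistic, neighbour runs and printed promoters were added. EGFR was named whatever its values. Any other gene is said to have been named after its value was seen. The fit was tested on simulated data. Alternatives covered normalization, moderation, filters, the limit, the arrays used and a replicate block.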

Additional observations from a re-analysis of the deposited data

How the results depend on the processing

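Centring the arrays gave 2586 called probe sets, quantile normalization 2539, and a fit without the gefitinib arrays 2506, all within 1.5 times of 2554. The fit without the gefitinib arrays called 1371 higher and 1135 lower, with 269 list members higher and 196 lower. Leaving out either gefitinib array alone gives this same fit by construction, because a lone array adds nothing to the spread, and is no further check. A trended and robust moderation called 4241 (2281 higher, 1960 lower) and a filter at the limit 3975 (2214 and 1761); list members called higher were then 441 and 421, and lower 342 with the trended fit. With 1 of the 4 arrays left out the lone array is assumed to vary like the other groups: 726 to 839 probe sets were called, 385 to 468 higher and 341 to 371 lower, with 76 to 99 list members higher and 54 to 68 lower. The class shares were then 0.873% to 1.07% higher and 0.356% to 0.445% lower in the negative-control range, 3.73% to 4.72% and 2.51% to 2.87% in the dim, 3.24% to 4.13% and 3.53% to 3.93% in the middle, and 2.08% to 2.58% and 3.27% to 3.90% in the bright class. Linear shares were 1.30% to 1.54% on control and 4.31% to 4.87% on EGF arrays for higher, and 1.94% to 2.62% and 0.527% to 0.805% for lower probe sets. With classes from the 4-array mean the negative-control range had 1.35% higher and 1.71% lower, the dim class 11.3% lower and the bright class 13.0% higher and 8.37% lower. With the limit at the 99th percentile the range had 4.92% higher and 3.28% lower, the dim class 11.4% lower, the middle class 11.4% higher, and 64 probe sets entered detection. Quantile normalization gave linear shares of 5.68%, 12.5%, 9.71% and 4.62%, and turned EGFR from 0.04 to −0.063. In the 100 bases before the start the shares were 1.19% for FOXO among lower, and 6.56% for ETS and 2.94% for AP-1 among higher genes. Between groups, the differences of replicate 1 minus replicate 2 correlated at −0.04 to 0.02 over all 21448 probe sets, most of them within the negative-control range. These correlations do not settle whether the replicate numbers pair the arrays, which the labels do not state. The fit with a replicate block called 2040. The cause of these shifts was not tested.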
